A study of Mus musculus with 18 samples.

Results

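The genes described here are 10 members of the mouse cytochrome P450 subfamilies 2A, 2D, 2E, 2F and 2J, namely Cyp2a4, Cyp2a5, Cyp2d9, Cyp2d10, Cyp2d13, Cyp2d22, Cyp2d26, Cyp2e1, Cyp2f2 and Cyp2j5. They were chosen by name, and every array probe whose transcript accession maps to one of these symbols was taken, which gave 16 of the 41174 probes on the array and 10 of its 32282 genes. Cyp2a4 had 3 probes, Cyp2d9, Cyp2d10, Cyp2d22 and Cyp2j5 had 2 each and the other genes had 1. All 16 probes were well above background and unsaturated on all 18 arrays, and where a gene had several, the brightest gave its value.

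Expression was measured with single-colour Agilent microarrays in livers of female mice aged 6 weeks, in 6 groups of 3 samples. Nrf1 CKO livers, from a liver-specific conditional knockout, had the genotype Nrf1(dN/-)::Alb-Cre, in which the albumin promoter drives Cre recombinase in hepatocytes. Their controls were Nrf1(dN/+), which carry the dN allele too. Nrf2 KO livers were Nrf2(-/-) and their controls Nrf2(+/+). Keap1 KD livers were Keap1(Kd/-), and their controls Keap1(Kd/+) carry the knockdown allele Kd as well. The Nrf2 line was on C57BL/6, and both other lines were of mixed strain. Nothing in the labels states that replicates came from separate mice, so p-values measure only the spread between replicates, which may be technical.

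Microsomal P450 enzymes of the liver are heme proteins of the endoplasmic reticulum that take electrons from P450 oxidoreductase and insert an oxygen atom into steroids, fatty acids, drugs and toxicants. Subfamily 2A of the mouse includes the coumarin hydroxylase CYP2A5 and the closely related testosterone hydroxylase CYP2A4, and subfamily 2D is a large tandem family. CYP2E1 oxidises ethanol and acetaminophen and lies around the central vein, CYP2F2 activates naphthalene and lies around the portal vein, and CYP2J5 is an arachidonic acid epoxygenase. The antioxidant response element of many promoters is read by the relatives NRF1 (gene symbol Nfe2l1) and NRF2 (Nfe2l2), and KEAP1 directs NRF2 to degradation. Cyp2a5 is known in mice as a gene that NRF2 can induce.

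Levels are given as log2 of the processed signal relative to the 75th percentile of the array, so that a difference of 1 is a doubling. Because probes differ in brightness, each level is compared only with the level of the same probe in other samples. In bulk liver, fewer cells of a type and less RNA per cell cannot be told apart. Per array, 21668 to 28213 spots stood well above background, and 16 of 17 hepatocyte markers could be tested. Nfe2l1 was well above background on 0 of the 3 Nrf1 CKO arrays, Nfe2l2 on 1 of the 3 Nrf2 KO arrays, and Keap1 was lower in Keap1 KD (log2 fold change −2.39, limma adjusted p = 0.00124). None of these 3 targets overlapped between a mutant and its control. Arrays lay on 7 slides scanned on 4 dates. The 3 Nrf1 CKO arrays shared slide 2 with Nrf1 Control 3, slide 7 and scan date 4 held both Keap1 groups, and no slide or date held both Nrf2 groups.

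In Nrf1 CKO livers the 10 genes lay between 0.32 and 1.31 log2 units below control, and 2 of them, Cyp2d13 and Cyp2j5, passed the test over all genes (limma, adjusted p under 0.05). In Nrf2 KO livers none passed, and the member with the largest difference was Cyp2f2. In Keap1 KD livers 1 gene passed, again Cyp2d13, which was lower, while 8 of the 10 log2 fold changes were above 0 (5 of 10 without Keap1 Control 3 or without Keap1 KD 1). Of all 17721 genes tested, 18.9% were called in either direction and 10.9% were called lower in Nrf1 CKO, 0.0621% were called in Nrf2 KO, and 5.52% were called and 4.58% called lower in Keap1 KD. Calls of higher genes made up 7.99% of all genes in Nrf1 CKO and 0.948% in Keap1 KD. The plot of levels by array shows all 10 genes in all 18 samples.

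**Figure D1:**
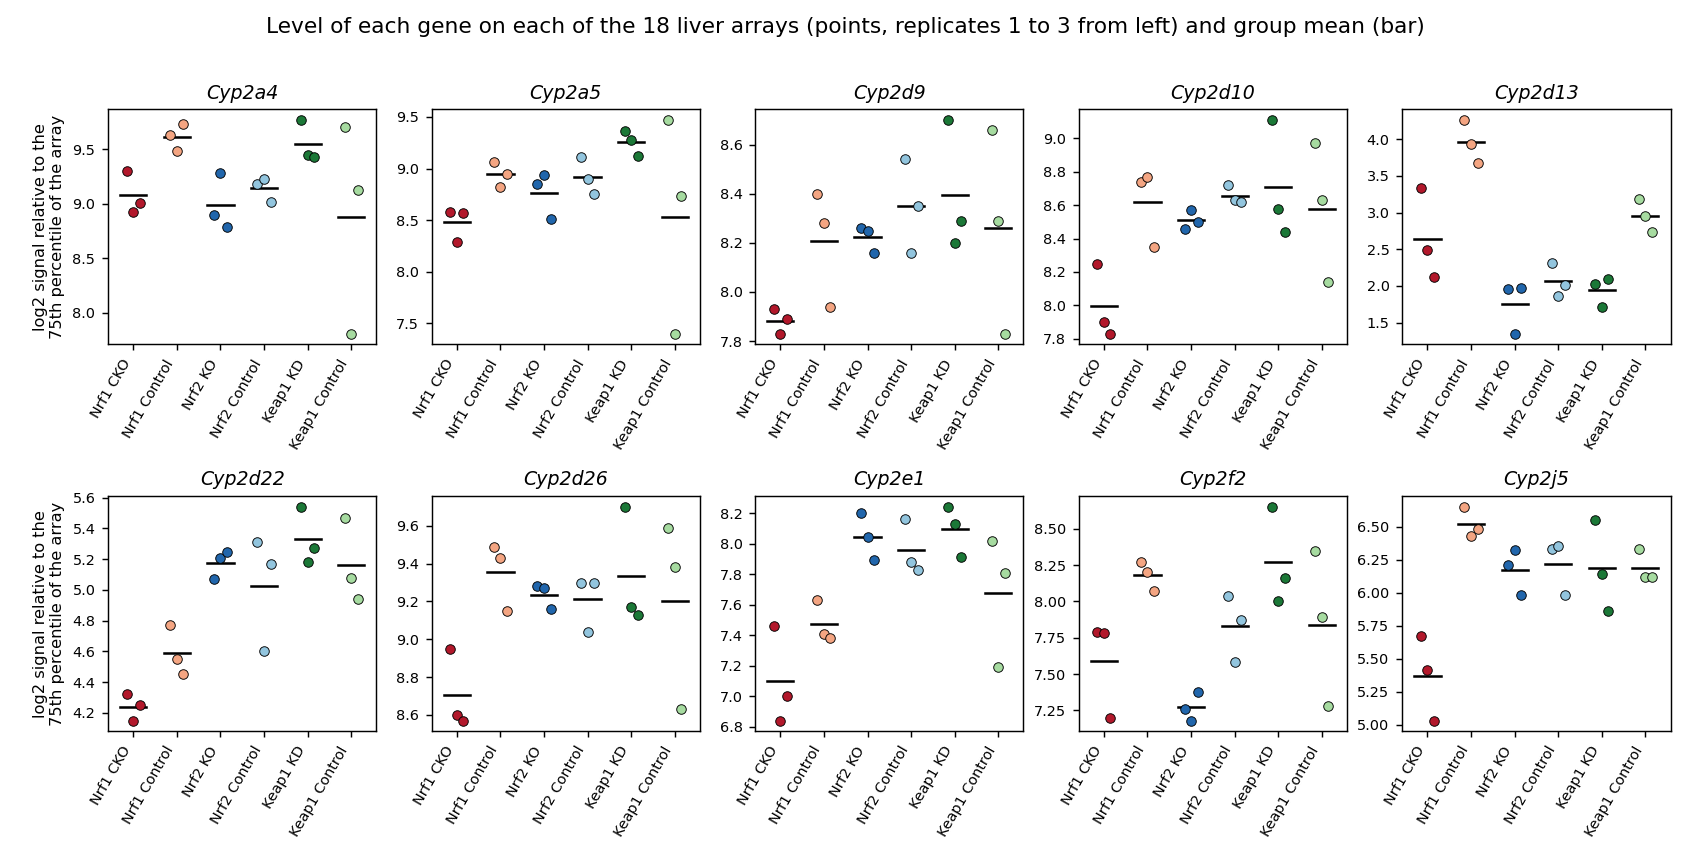
Level of each of the 10 genes (log2 of signal over the 75th percentile, brightest probe) on each array, with a bar at the mean of each group of 3; each panel has its own vertical scale. Cyp2j5 was lowest in Nrf1 CKO, at 5.03 to 5.67, below all other arrays, and Cyp2d13 was highest in Nrf1 Control, at 3.68 to 4.26, above all other arrays.

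Cyp2j5, the arachidonic acid epoxygenase, had levels of 5.67, 5.41 and 5.03 in Nrf1 CKO livers, against 6.65, 6.43 and 6.48 in Nrf1 Control livers. All 3 CKO samples lay below every one of the other 15 arrays. The level was 0.451 times that of control (log2 fold change −1.15, SE 0.20, 95% interval −1.57 to −0.73, limma adjusted p = 0.00249, n = 3 each). It stayed past the threshold under 4 ways of scaling the arrays, but was smaller with quantile normalization (−0.75, limma adjusted p = 0.00726) and with normexp background correction and quantile normalization (−0.72, limma adjusted p = 0.00225). Within slide 2, where 3 CKO arrays stood against 1 control, the difference was −1.11, and with slide as a block the call was lost (−1.11, limma adjusted p = 0.157). A second Cyp2j5 probe was also lower in Nrf1 CKO (−0.94, SE 0.21, limma adjusted p = 0.00895 in a fit of all probes).

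The same gene showed no such difference in the other lines. Its levels were 6.21, 6.32 and 5.98 in Nrf2 KO livers, against 6.33, 6.35 and 5.98 in Nrf2 Control livers. The groups overlapped, with a log2 fold change of −0.05 (95% interval −0.47 to 0.37, limma adjusted p = 0.968). Keap1 KD livers had 6.55, 6.14 and 5.86, against 6.33, 6.12 and 6.12 in Keap1 Control livers, which also overlapped (−0.01, 95% interval −0.43 to 0.41, limma adjusted p = 0.991). Both intervals lay above the Nrf1 CKO log2 fold change of −1.15, but they cover only the spread between replicates. No slide or scan date held both Nrf2 groups, so the Nrf2 interval does not account for a shift between slides or dates.

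The Nrf1 effect on Cyp2j5 was tested against the effects of the other lines, which use other control arrays. It was lower than the Nrf2 effect by a log2 difference of −1.10 (SE 0.28, 95% interval −1.69 to −0.50, limma adjusted p = 0.0351) and lower than the Keap1 effect by −1.14 (SE 0.28, 95% interval −1.74 to −0.54, limma adjusted p = 0.0291). Cyp2j5 was the 1 member called in each of these comparisons, where 5.58% and 6.92% of all genes were called and 2.57% and 3.36% were called lower. Both calls were lost with slide (limma adjusted p of 0.41 and 0.319) or scan date (0.179 and 0.092) as a block and without the filter on background (0.0926 and 0.0651), at differences of −1.23 to −1.10. The difference from Nrf2 KO was also lost with the array median (limma adjusted p = 0.064) and the mean of all probes (−0.88, limma adjusted p = 0.0784). The difference from Keap1 KD was lost with quantile normalization (−0.64, limma adjusted p = 0.118), normexp (−0.65, limma adjusted p = 0.0505) and the arrays of these lines alone (limma adjusted p = 0.0769). Leaving out 1 array of the lines compared kept the first call only for Nrf1 Control 3, Nrf1 CKO 1 or Nrf2 Control 2 (limma adjusted p otherwise 0.051 to 0.104). It lost the second for Nrf1 Control 1, Nrf1 CKO 2 or 3, Keap1 Control 2 or 3 and Keap1 KD 1 (limma adjusted p of 0.0513 to 0.0851). The second probe gave −0.65 (limma adjusted p = 0.195) and −0.85 (limma adjusted p = 0.0914). Between the Nrf2 and Keap1 effects 0 members passed, against 3.09% of all genes, and 1 member, Cyp2f2, had an unadjusted limma p under 0.05, as did 17.1% of all genes.

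Ordered by group mean, Cyp2j5 was highest in Nrf1 Control (6.52 ± 0.12, SD, n = 3). Its range of 6.43 to 6.65 lay above the next group, Nrf2 Control, but overlapped with Keap1 KD, which reached 6.55. Nrf2 Control (6.22 ± 0.21), Keap1 Control (6.19 ± 0.12), Keap1 KD (6.18 ± 0.34) and Nrf2 KO (6.17 ± 0.17) followed without separation, and Nrf1 CKO was lowest (5.37 ± 0.32). On the second probe Nrf1 Control (5.69, 5.50 and 5.87) also overlapped with Nrf2 Control (5.66, 5.80 and 5.29). On the brightest probe the difference between the means of Nrf1 CKO and the nearest group was 0.80. Over the 18 arrays the genes most like Cyp2j5 included Cd302 and Adk, with Pearson r of 0.954 and 0.941, a description over arrays that share their groups.

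The Cyp2j5 promoter is shown because Cyp2j5 was the 1 member whose Nrf1 effect was called different from those of the other lines. These calls were lost under several alternatives and were not made on the second probe. The sequence is the 250 bases before the start in RefSeq, chr4:96664120-96664369 of GRCm38.p6 on the minus strand, 5′ to 3′. A TATAAA on the opposite strand is in capitals, 128 bases before the start.
Cyp2j5: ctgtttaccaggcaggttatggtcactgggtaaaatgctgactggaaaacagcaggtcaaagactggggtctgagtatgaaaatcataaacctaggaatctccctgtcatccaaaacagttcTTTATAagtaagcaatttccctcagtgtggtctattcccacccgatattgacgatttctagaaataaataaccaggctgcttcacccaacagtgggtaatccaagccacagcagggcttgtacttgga

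Promoter entries were found for 8 of the 10 genes, all but Cyp2d13 and Cyp2d22. The core letters of the antioxidant response element, TGACNNNGC, occurred on neither strand in any of the 8 windows, against 10.2% of the 32851 mouse promoter windows in the table. TATAAA occurred in 7 of the 8, all but Cyp2f2, against 12.4% of all windows, and in 6 of them it lay 28 to 31 bases before the start. Of these 6, Cyp2a4, Cyp2a5 and Cyp2e1 had it on the strand of the gene, and Cyp2d9, Cyp2d10 and Cyp2d26 on the opposite strand. GTTAAT, letters of an HNF1 site, occurred in Cyp2a4, Cyp2a5 and Cyp2d26, against 6.4% of all windows, and CCAAT in Cyp2d26 and Cyp2e1, against 33.8%. TTATGTAA and CAAAGTCCA had 0 matches in the 8 windows, against 0.8% and 0.4%. A match describes letters in this window and not a bound site. A lack of matches says nothing of sequence outside the 250 bases, and 0 of 8 windows is not far from a share of 10.2%.

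Cyp2d13 is annotated in RefSeq as a transcribed pseudogene, whereas the other 9 genes are annotated as protein coding. Its levels were 3.33, 2.49 and 2.12 in Nrf1 CKO livers, against 4.26, 3.94 and 3.68 in Nrf1 Control livers. The groups did not overlap, although Nrf1 CKO 1 lay close to the lowest control. The level was 0.402 times that of control (log2 fold change −1.31, SE 0.27, 95% interval −1.90 to −0.73, limma adjusted p = 0.00632), the difference within slide 2 was −1.03, and with slide as a block the call was lost (−1.03, limma adjusted p = 0.276).

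In the Keap1 line its levels were 2.03, 1.71 and 2.10 in Keap1 KD livers, against 3.18, 2.95 and 2.73 in Keap1 Control livers. Every KD sample lay below every control. The level was 0.497 times that of control (log2 fold change −1.01, SE 0.27, 95% interval −1.59 to −0.42, limma adjusted p = 0.0443). This call lies close to the threshold: it was lost without any 1 of the 6 arrays (limma adjusted p of 0.0759 to 0.134), with scaling to the array median (−0.71, limma adjusted p = 0.193), and with slide or scan date as a block (limma adjusted p of 0.352 and 0.235). The difference was −0.63 within slide 7, between 1 array of each group, and −0.74 within scan date 4, between 1 KD array and 2 controls.

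Nrf2 KO livers had Cyp2d13 levels of 1.96, 1.35 and 1.97, against 2.31, 1.87 and 2.02 in Nrf2 Control livers, and the groups overlapped (−0.31, 95% interval −0.90 to 0.28, limma adjusted p = 0.812). The effects in the 3 lines did not differ past the threshold: −1.0 between Nrf1 CKO and Nrf2 KO (limma adjusted p = 0.131; −1.35 and 0.018 without Nrf1 CKO 1), −0.31 between Nrf1 CKO and Keap1 KD (limma adjusted p = 0.625) and 0.70 between Nrf2 KO and Keap1 KD (limma adjusted p = 0.39). The control groups of the 3 lines also had unlike levels of Cyp2d13. The mean was 3.96 ± 0.29 in Nrf1 Control, 2.95 ± 0.22 in Keap1 Control and 2.07 ± 0.22 in Nrf2 Control (SD, n = 3 each), with no overlap between these 3 groups, a comparison between lines that was not tested. On slide 3, which Keap1 Control 1 shared with all 3 Nrf2 Control arrays, the level was 3.18 on the Keap1 Control array, against 1.87 to 2.31 on the Nrf2 Control arrays. The Nrf1 CKO mean was 2.64 ± 0.62, between the Keap1 Control and Nrf2 Control means. Over the 18 arrays the genes most like it were Clk3, Ggnbp1 and Gin1, with Pearson r of 0.943, 0.923 and 0.923.

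The other 4 Cyp2d genes differed less. Cyp2d10 had 8.25, 7.90 and 7.83 in Nrf1 CKO livers, against 8.74, 8.77 and 8.35 in Nrf1 Control livers, and Cyp2d26 had 8.95, 8.60 and 8.57 in Nrf1 CKO livers, against 9.49, 9.43 and 9.15 in Nrf1 Control livers. Neither gene overlapped between the groups, and both fell just short of the threshold (Cyp2d10 −0.63, 95% interval −1.09 to −0.17, limma adjusted p = 0.0543; Cyp2d26 −0.65, 95% interval −1.13 to −0.17, limma adjusted p = 0.0549). Both passed when Nrf1 CKO 1 was left out (limma adjusted p of 0.0333 and 0.0375), and both shrank with quantile normalization, to −0.11 and −0.15. A second Cyp2d10 probe passed in the fit of all probes (−0.66, limma adjusted p = 0.0375).

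Cyp2d9, a testosterone hydroxylase known for higher expression in male mice, had 7.93, 7.83 and 7.89 in Nrf1 CKO livers, against 8.40, 8.28 and 7.94 in Nrf1 Control livers. The ranges nearly met at Nrf1 Control 3, and the difference did not pass (−0.32, limma adjusted p = 0.272, or 0.15 with quantile normalization). On the second Cyp2d9 probe the groups overlapped, with 7.47, 7.48 and 7.63 in Nrf1 CKO against 7.94, 7.84 and 7.43 in Nrf1 Control. Cyp2d22, often treated as the mouse counterpart of human CYP2D6, had 4.32, 4.15 and 4.25 in Nrf1 CKO livers, against 4.77, 4.55 and 4.45 in Nrf1 Control livers (−0.35, limma adjusted p = 0.205; −0.07 with quantile normalization). By group mean, Cyp2d22 was lower in both groups of the Nrf1 line, at 4.24 ± 0.08 in CKO and 4.59 ± 0.17 in control. The means were 5.03 to 5.33 in the other 4 groups, a comparison between lines that was not tested. Nrf2 Control 2, at 4.60, lay within the Nrf1 Control range of 4.45 to 4.77. On the second Cyp2d22 probe Nrf1 Control (1.28, 1.0 and 0.67) overlapped with Nrf2 Control (1.38, 0.16 and 0.96). On that probe it also overlapped with Nrf1 CKO (0.78, 0.08 and 0.15). In the Nrf2 and Keap1 lines the log2 fold changes of these 4 Cyp2d genes lay between −0.14 and 0.17, all with limma adjusted p above 0.05. Of the 5 Cyp2d genes, Cyp2d13 was thus the 1 that passed in any line.

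Cyp2d9, Cyp2d10 and Cyp2d26 moved closely together between samples of the same group. After subtraction of group means, Pearson r over the 18 arrays was 0.94 for Cyp2d10 and Cyp2d26, 0.92 for Cyp2d9 and Cyp2d26 and 0.89 for Cyp2d9 and Cyp2d10. The SDs of Cyp2d9, Cyp2d10 and Cyp2d26 were largest in Keap1 Control (0.42, 0.42 and 0.51), against 0.05 to 0.35 in the other groups. Their correlation without Keap1 Control was not tested. These 3 genes and Cyp2d13 and Cyp2d22 lie on chromosome 15 in a span of 26 genes that holds 18 Cyp2 genes or pseudogenes, of which 7 could be tested. The 2 tested genes of the span that are not among the 10, Cyp2d12 and Cyp2d34, had log2 fold changes of −0.25 and 0.71 in Nrf1 CKO. Cox6a1 and Clpp (r of 0.931 and 0.929) were most like Cyp2d9, Clpp, Cox6a1 and Edf1 (0.957, 0.956 and 0.954) most like Cyp2d10, Ndufb10 (0.956) most like Cyp2d26, and Eif4ebp2, Faah and Cyp2d12 (0.947, 0.946 and 0.945) most like Cyp2d22. The plot of correlations within groups gives all pairs. How far a probe of one Cyp2d gene also reads another was not tested. Correlations with quantile normalization, where the Nrf1 CKO differences of Cyp2d9, Cyp2d10 and Cyp2d26 shrank or turned, were not tested either.

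**Figure D2:**
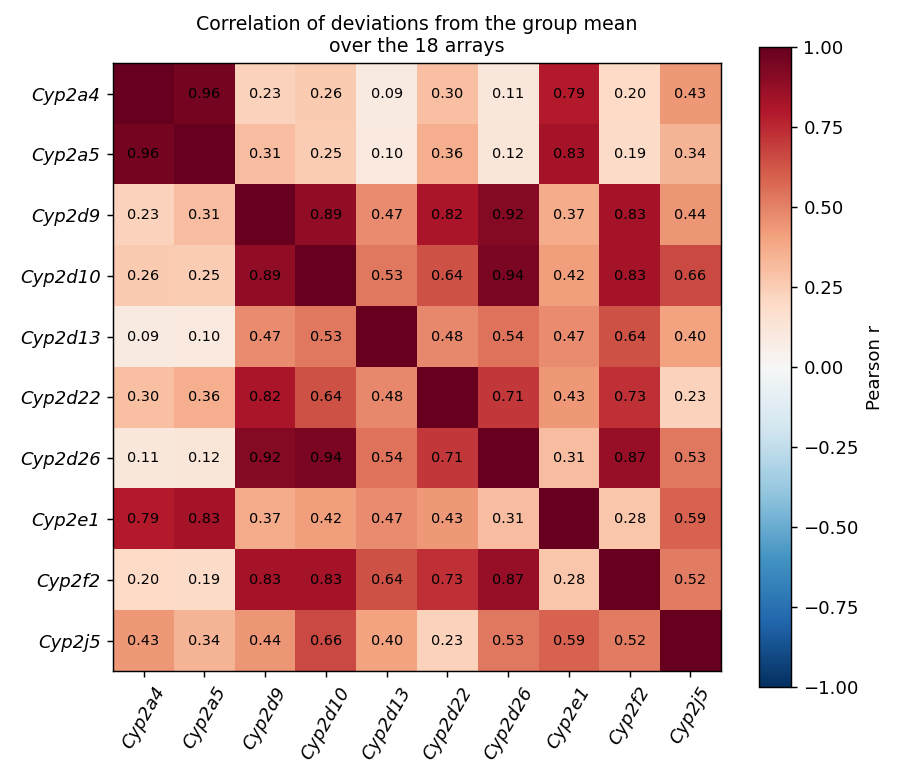
Pearson correlation between the 10 genes of their deviations from the group mean over the 18 arrays (rows and columns: genes; colour and number: r, from −1 to 1). Cyp2a4 with Cyp2a5 (0.96) and Cyp2d10 with Cyp2d26 (0.94) had the highest values. Most of the spread of Cyp2a4 and Cyp2a5 lay in Keap1 Control (SD 0.97 and 1.05), where Cyp2d10 and Cyp2d26 also had their largest SDs (0.42 and 0.51).

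Cyp2a4 and Cyp2a5 varied together between samples, with r of 0.96 after subtraction of group means. Most of this spread lay in Keap1 Control, with SDs of 0.97 and 1.05. In the other groups the SDs were 0.11 to 0.26 for Cyp2a4 and 0.12 to 0.23 for Cyp2a5. The correlation without Keap1 Control was not tested. Their promoters are shown because the genes are near copies: 245 of 251 alignment columns were identical (97.6%), against 82.8% for Cyp2d9 and Cyp2d10 and 48.3% to 54.4% for the other pairs of the 8. Both are the 250 bases before the start in RefSeq, on the plus strand of GRCm38.p6, chr7:26306942-26307191 for Cyp2a4 and chr7:26835089-26835338 for Cyp2a5, with capitals at the 5 bases of each that have no equal in the other.
Cyp2a4: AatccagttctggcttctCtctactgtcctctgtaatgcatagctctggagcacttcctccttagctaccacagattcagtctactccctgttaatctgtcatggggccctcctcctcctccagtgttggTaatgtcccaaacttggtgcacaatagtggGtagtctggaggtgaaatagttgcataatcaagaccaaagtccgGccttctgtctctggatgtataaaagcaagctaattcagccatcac
Cyp2a5: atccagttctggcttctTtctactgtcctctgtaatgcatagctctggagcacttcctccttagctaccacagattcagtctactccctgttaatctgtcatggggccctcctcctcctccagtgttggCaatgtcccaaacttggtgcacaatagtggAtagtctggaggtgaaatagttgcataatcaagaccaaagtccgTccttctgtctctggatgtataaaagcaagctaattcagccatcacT

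The sequences of the array probes are not given in the sources used here, so how far a probe of one of these genes also reads the other was not tested. In the Keap1 line Cyp2a4 had 9.77, 9.45 and 9.43 in Keap1 KD livers, against 9.71, 7.81 and 9.13 in Keap1 Control livers. Cyp2a5 had 9.36, 9.28 and 9.12 in Keap1 KD livers, against 9.47, 7.40 and 8.73 in Keap1 Control livers. For both genes the KD samples lay close together, Keap1 Control 1 lay among or above them, and Keap1 Control 2 lay below every other array of the series. The differences did not pass the test (Cyp2a4 0.66, 95% interval −0.04 to 1.37, limma adjusted p = 0.334; Cyp2a5 0.72, 95% interval −0.02 to 1.46, limma adjusted p = 0.313).

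Single control arrays decide these values. Without Keap1 Control 2 the log2 fold changes were 0.13 and 0.16, and without Keap1 Control 1 they were 1.08 and 1.19 and passed (limma adjusted p of 0.0485 and 0.0304). Within scan date 4, between 1 KD array and 2 controls, they were 0.96 and 1.06, and within slide 7, between 1 array of each group, 0.30 and 0.40. The third Cyp2a4 probe had 9.37, 9.39 and 9.13 in Keap1 KD livers, against 8.92, 6.31 and 8.56 in Keap1 Control livers. On that probe the groups did not overlap, and the difference was 1.37 (SE 0.46, limma adjusted p = 0.12 in the fit of all probes). The second Cyp2a4 probe gave 0.58 (limma adjusted p = 0.283), with Keap1 Control 2 again lowest, at 7.97.

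**Figure D3:**
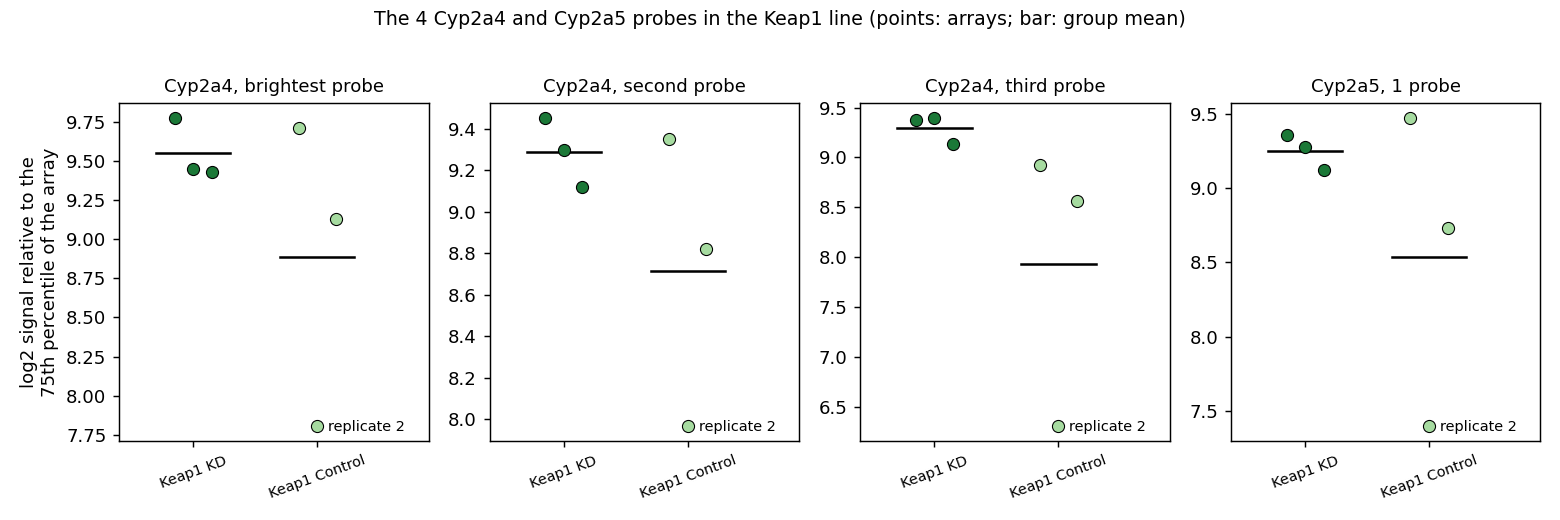
Level of each of the 3 Cyp2a4 probes and the 1 Cyp2a5 probe (log2 of signal over the 75th percentile) on the 3 Keap1 KD and 3 Keap1 Control arrays, with a bar at each group mean and its own vertical scale per panel. Keap1 Control replicate 2 was lowest on all 4 probes, at 7.81, 7.97, 6.31 and 7.40 from left to right.

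In the Nrf1 line Cyp2a4 had 9.30, 8.93 and 9.01 in Nrf1 CKO livers, against 9.63, 9.49 and 9.73 in Nrf1 Control livers. Cyp2a5 had 8.58, 8.29 and 8.57 in Nrf1 CKO livers, against 9.06, 8.82 and 8.95 in Nrf1 Control livers. Neither gene overlapped between the groups, yet neither passed (−0.54, limma adjusted p = 0.262, and −0.47, limma adjusted p = 0.359), and with quantile normalization the differences were −0.10 and 0.06. Nrf2 KO livers overlapped with their controls for both genes (−0.15 for each, limma adjusted p of 0.939 and 0.943). Cyp2a4 had 8.90, 9.28 and 8.79 in Nrf2 KO livers, against 9.18, 9.23 and 9.02 in Nrf2 Control livers, and Cyp2a5 had 8.85, 8.94 and 8.51, against 9.11, 8.90 and 8.75. The Nrf1 effect lay below the Keap1 effect by −1.20 for Cyp2a4 and −1.19 for Cyp2a5, short of the threshold (limma adjusted p of 0.114 and 0.133).

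Apart from each other, the genes most like Cyp2a4 were Tmem97 and Bcap31 (Pearson r of 0.824 and 0.817 over 18 arrays) and those most like Cyp2a5 were Gch1 and Me1 (0.886 and 0.86). Cyp2a4, Cyp2a5 and Cyp2f2 lie on chromosome 7 in a span of 21 genes with 9 Cyp2 genes or pseudogenes, of which 7 could be tested. Of the 4 tested genes there that are not among the 10, Cyp2a12 was called lower in Nrf1 CKO (−0.72, limma adjusted p = 0.0264; −0.23, limma adjusted p = 0.325, with quantile normalization). The others were at 0.10 for Cyp2b19, −0.30 for Cyp2a22 and −1.10 for Cyp2g1 and did not pass.

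Cyp2f2, the naphthalene-activating enzyme, had 7.26, 7.18 and 7.38 in Nrf2 KO livers, against 8.04, 7.58 and 7.87 in Nrf2 Control livers. Every KO sample lay below every control, with a difference of −0.56 (SE 0.25, 95% interval −1.09 to −0.03, limma adjusted p = 0.549). Cyp2f2 was the 1 member with an unadjusted p under 0.05 in Nrf2 KO, where limma gave 1576 such genes of 17721 (8.89%). Cyp2f2 and Cyp2d10 were the 2 members that were lower without overlap on the brightest probe, against 11.0% of all genes. For Cyp2d10 the difference was −0.14 (limma adjusted p = 0.902). Its second probe overlapped, with 5.66, 5.88 and 5.85 in Nrf2 KO livers against 6.39, 5.83 and 5.97 in Nrf2 Control livers. With slide or scan date as a block, which here rests on Keap1 arrays of the same slides or dates, the Cyp2f2 value was 0.04 and 0.10, so that its direction turned.

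In the Nrf1 line Cyp2f2 had 7.79, 7.78 and 7.20 in Nrf1 CKO livers, against 8.27, 8.20 and 8.07 in Nrf1 Control livers, without overlap (−0.59, 95% interval −1.12 to −0.06, limma adjusted p = 0.106; −0.09 with quantile normalization). Keap1 KD livers had 8.65, 8.0 and 8.16, against 8.35, 7.89 and 7.28 in Keap1 Control livers, and overlapped (0.43, 95% interval −0.10 to 0.96, limma adjusted p = 0.431). The difference between the Nrf1 and Nrf2 effects on Cyp2f2 was −0.03 (95% interval −0.79 to 0.72, limma adjusted p = 0.963), and 0.42 with quantile normalization and 0.44 with normexp. Both effects lay below the Keap1 effect, by −1.02 and −0.99, without passing (limma adjusted p of 0.0835 and 0.149). The first of these passed with the array median (−1.42, limma adjusted p = 0.0442) and without Keap1 Control 1 (−1.28, limma adjusted p = 0.0279). Gm2a, Iscu and Adra1b were most like it over the 18 arrays (Pearson r of 0.868, 0.861 and 0.858).

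Cyp2e1, the ethanol-oxidising enzyme, had 7.46, 6.84 and 7.0 in Nrf1 CKO livers, against 7.63, 7.41 and 7.38 in Nrf1 Control livers. On the brightest probes it was the 1 gene of the 10 whose Nrf1 groups overlapped, at Nrf1 CKO 1. The difference was −0.37 (limma adjusted p = 0.228, or 0.11 with quantile normalization). The second probes of Cyp2d9 and Cyp2d22 also overlapped in that line. Keap1 KD livers had 8.24, 8.13 and 7.91, against 8.02, 7.19 and 7.81 in Keap1 Control livers, where Keap1 Control 2 was again the lowest (0.42, 95% interval −0.03 to 0.87, limma adjusted p = 0.348). Nrf2 KO livers had 8.20, 8.04 and 7.89, against 8.16, 7.88 and 7.83 in Nrf2 Control livers, and overlapped (0.08). Within groups Cyp2e1 went with Cyp2a5 (r of 0.83) and Cyp2a4 (0.79), where Keap1 Control had the largest SD for each gene (0.43 for Cyp2e1). Over the 18 arrays Cyp2e1 was most like Gpr108, 1190007I07Rik and Akr1c12 (0.954, 0.923 and 0.917).

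Seen as a set in Nrf1 CKO, 9 of the 10 genes were lower without overlap on the brightest probe, against 28.1% of all genes. Of these 9, Cyp2d9 and Cyp2d22 overlapped on their second probes. Of the 10 genes, 5 had an unadjusted limma p under 0.05, as did 34.7% of all genes. Their median log2 fold change was −0.57, against −0.09 over all genes tested, and the differences within slide 2 ranged from −1.11 to −0.06. This shared direction depended on the scaling of the arrays: 10 of 10 were lower with the 75th percentile or the array median, 7 of 10 with quantile normalization and 6 of 10 with normexp and quantile normalization, and the median was −0.67 with the array median, −0.09 with quantile normalization and −0.02 with normexp. The 75th percentile of the processed signal was 305.47 to 403.06 on the Nrf1 CKO arrays, against 193.77 to 251.56 on the Nrf1 Control arrays. Scaling to the array median moved the median of all genes to −0.20 in Nrf1 CKO and to 0.29 in Keap1 KD, where it was 0 with the 75th percentile. Cyp2d13 and Cyp2j5 were called under all 4 scalings in Nrf1 CKO.

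**Figure D4:**
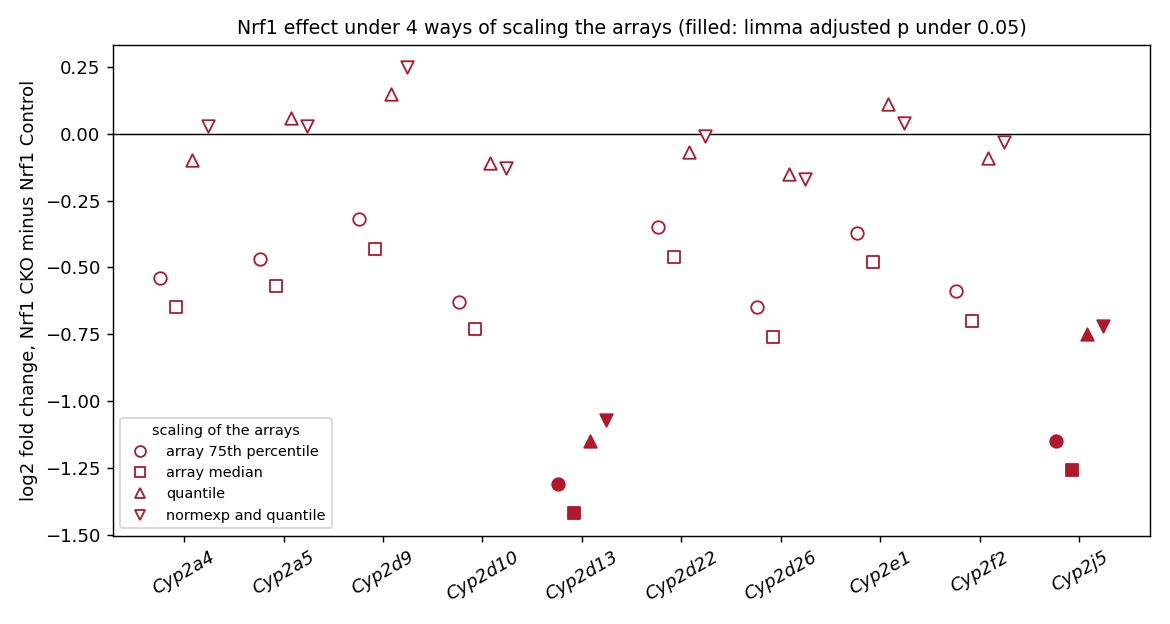
Log2 fold change of each gene in Nrf1 CKO minus Nrf1 Control under 4 ways of scaling the arrays (symbols), filled where the limma adjusted p is under 0.05. Cyp2d13 and Cyp2j5 are filled throughout, at −1.42 to −1.07 and −1.26 to −0.72, and the other 8 genes move toward or past 0 with the quantile-based scalings.

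In Nrf2 KO the median over the 10 genes was −0.13, against 0.01 over all genes, with 7 log2 fold changes below 0 and 0 calls. The direction turned with slide or scan date as a block, with medians of 0.37 and 0.47 and 9 of 10 values above 0, and the median was −0.04 without Nrf2 Control 1 or Nrf2 KO 3. In Keap1 KD the median was 0.15, against 0 over all genes. It was 0 without Keap1 Control 3, 0.02 without Keap1 KD 1, 0.33 without Keap1 Control 1, 0.24 and 0.25 without Keap1 KD 2 or 3, 0.38 and 0.30 with slide or scan date as a block, and 0.44 with the array median, where all genes had 0.29. Of the 10 genes 1, Cyp2d13, was lower without overlap, against 11.4% of all genes. The median of the difference between the Nrf1 and Keap1 effects was −0.79, against −0.04 over all genes, and between the Nrf1 and Nrf2 effects −0.47, against −0.09. With quantile normalization these medians were −0.25 and −0.03.

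**Figure D5:**
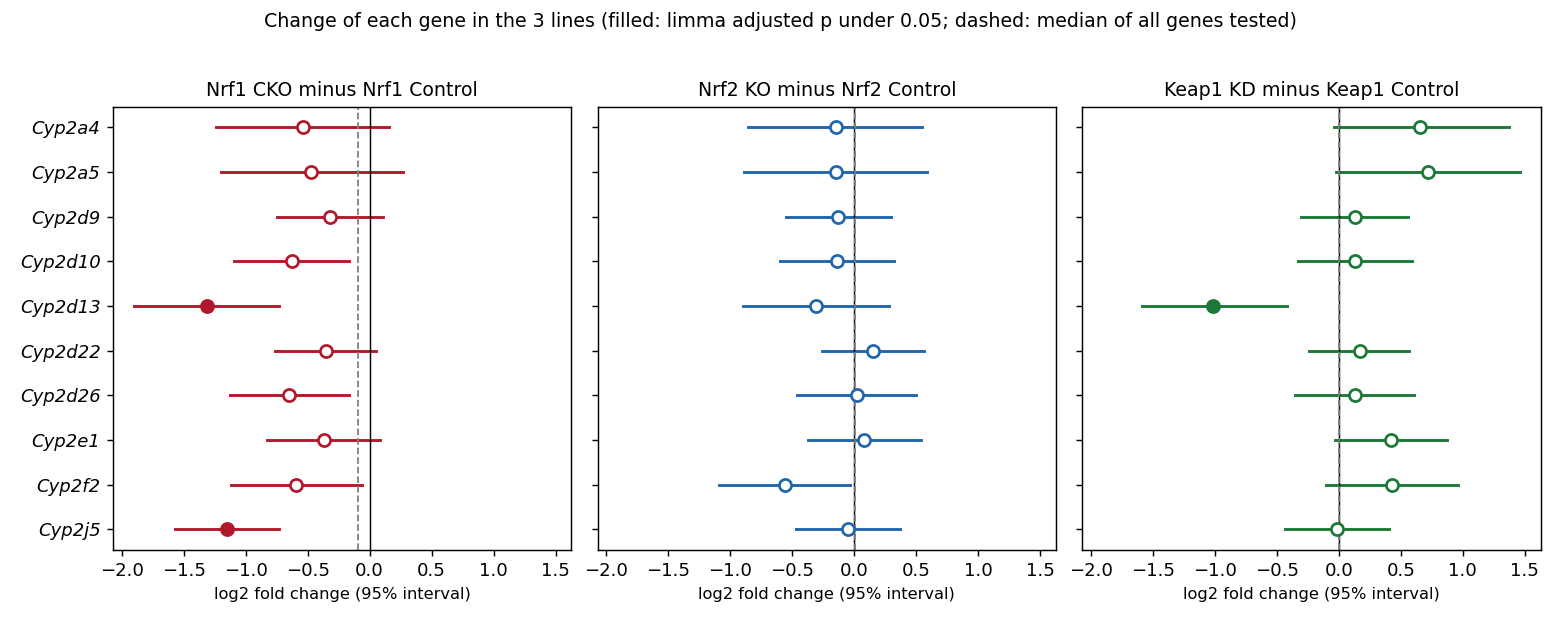
Log2 fold change of each gene with its 95% interval in the 3 lines (mutant minus its own control), filled where the limma adjusted p is under 0.05; the dashed line is the median of all genes tested. In Nrf1 CKO all 10 points lie below 0, in Nrf2 KO all intervals but that of Cyp2f2 include 0, and in Keap1 KD Cyp2d13 (−1.01) stands apart from 9 genes at −0.01 to 0.72.

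The partners that supply P450 enzymes with electrons and heme were examined beside them. In Nrf1 CKO, 2 of 18 were called lower and 1 higher, near the shares over all genes of 10.9% lower and 7.99% higher. Their median of −0.36 turned to 0.08 with quantile normalization. Por, the P450 oxidoreductase, was at −1.06 (limma adjusted p = 0.0299) and Pgrmc1, a heme-binding membrane protein, at −0.73 (limma adjusted p = 0.0103), and both calls were lost with quantile normalization (−0.56 and −0.22, limma adjusted p of 0.167 and 0.271). Hmox1, the heme oxygenase that NRF2 can induce, was at 0.93 (limma adjusted p = 0.0277; 0.82, limma adjusted p = 0.0746, with the array median). In Keap1 KD 1 of 18 was called, Pgrmc1, which was higher (0.68, limma adjusted p = 0.0306), where 0.948% of all genes were called higher.

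Of 26 other genes of the Cyp2a, Cyp2b, Cyp2d, Cyp2j and smaller subfamilies, 15 could be tested. Of these, 4 were lower in Nrf1 CKO, against 10.9% of all genes, with a median of −0.30. Cyp2b10, a phenobarbital-inducible enzyme, was at −2.28 (limma adjusted p = 0.00733), and the female-biased Cyp2b9 and Cyp2b13 were at −1.77 and −1.73 (limma adjusted p of 0.00667 and 0.0149). The fourth was Cyp2a12. In Keap1 KD 1 of the 15 was called, Cyp2a22, which was higher (1.3, limma adjusted p = 0.0308), where 0.948% of all genes were called higher. The Cyp2a22 call was lost with quantile normalization and with normexp (limma adjusted p of 0.0716 and 0.143). Close to Cyp2j5 on chromosome 4, Cyp2j6 and Cyp2j9 were at −0.30 and −1.04 in Nrf1 CKO and did not pass.

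Among 26 tested regulators of hepatic Cyp2 genes, 6 were lower in Nrf1 CKO, Nfe2l1 itself included, and 0 higher. Over all genes 10.9% were lower and 7.99% higher. The median of the regulators was −0.54 (−0.35 with quantile normalization). Ghr, the growth hormone receptor, was at −0.92 (limma adjusted p = 0.00776), Cebpb, a leucine zipper factor, at −1.07 (limma adjusted p = 0.0276, or 0.0513 with normexp), and Nr1i2, the xenobiotic receptor PXR, at −1.10 (limma adjusted p = 0.0338, or 0.0669 with quantile normalization). In the Nrf2 and Keap1 lines the 1 regulator called was the targeted gene.

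Zonation and sex are known to set levels of several of these enzymes. Of all genes, 10.9% were called lower and 7.99% higher in Nrf1 CKO, and 4.58% lower and 0.948% higher in Keap1 KD. In Nrf1 CKO, 14 of 16 periportal genes were lower and 1 higher (median −1.20; 7 lower with quantile normalization), with Gls2, a glutaminase, at −2.38 and the urea cycle gene Asl at −1.73. Of 17 pericentral genes, 4 were higher and 1 lower (median 0.29), among them the ammonium transporter Rhbg at 1.54 and Slc13a3 at 2.78. Of 13 female-biased genes 4 were lower (median −1.09), with Cyp17a1 at −2.48, and of 12 male-biased genes 2 were higher and 2 lower, with Cyp4a12a at 3.50 and Cyp7b1 at −2.22 (median −0.19; 0.11 with quantile normalization). In Keap1 KD 2 pericentral genes (Rhbg 1.70, a call lost with quantile normalization and normexp, and Slc13a3 1.08) and 3 male-biased genes (Cyp7b1 1.93, Gstp1 1.70 and Ugt2b1 1.52) were higher, and 0 periportal and 0 female-biased genes were called. Nrf2 KO had 0 calls in these 4 lists, with medians of 0.07, −0.12, 0.40 and −1.05 in the order periportal, pericentral, female-biased and male-biased.

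Some markers of other liver cells differed in Nrf1 CKO livers, most widely those of stellate cells. In those livers 13 of 15 stellate cell markers were higher, against 7.99% of all genes (median 1.04, with Col1a1 at 2.21 and Lum at 1.75). Of 15 macrophage markers 6 were higher, 1 was lower and 8 were not called (median 0.49, with Trem2 at 4.15 and Marco at 2.18). Of 13 proliferation genes 12 were higher (Mcm2 2.26, Top2a 2.23). Of 16 hepatocyte markers 8 were lower, against 10.9% of all genes (median −0.51, with Hpd at −1.45 and Tdo2 at −1.14). With quantile normalization 4 hepatocyte markers were lower and their median was −0.08. The 1 call among 9 cholangiocyte and progenitor markers (median 0.68) was Afp, higher at 1.92. The 1 call among 13 endothelial markers (median −0.06) was Lyve1, lower at −2.42. Of 9 lymphocyte markers (median −0.08) 1 was higher, Cd8a, a call lost under the 3 other scalings.

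The summed level of the hepatocyte markers was 11.78 to 12.18 on Nrf1 CKO arrays, against 12.37 to 12.55 on Nrf1 Control arrays. Stellate markers summed to 7.63 to 7.91 on CKO arrays, against 7.03 to 7.52 on control arrays, and proliferation genes to 6.09 to 6.92, against 4.69 to 5.10. Macrophage markers overlapped, at 7.83 to 8.86 on CKO arrays, against 6.99 to 7.90 on control arrays. The part of these markers in the levels of the 10 P450 genes was not tested. In Keap1 KD, Trem2 (1.51), Lyve1 (1.09) and Lum (−0.87) were called. They were the 1 call each among 15 macrophage, 13 endothelial and 15 stellate markers, where 5.52% of all genes were called. The list medians were −0.13, −0.19 and −0.11. With quantile normalization 0 endothelial markers were called higher and 1 lower. The call was lost for Lum under the 3 other scalings (limma adjusted p of 0.076 to 0.124), for Lyve1 with quantile normalization (0.0544) and for Trem2 with normexp (0.066). The hepatocyte markers summed to 12.06 to 12.54 on KD arrays, against 12.11 to 12.56 on control arrays. In Nrf2 KO none of these marker lists had a call, and the hepatocyte sums were 12.15 to 12.43 on KO arrays, against 12.26 to 12.39 on control arrays.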

How the data were processed

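Per the labels' protocols, total RNA was extracted with Isogen and labelled with Cy3. Per the file headers, the authors read the arrays with Agilent Feature Extraction 10.7.3.1. The deposited processed signal intensities are background-subtracted, detrended and not normalized between arrays, per the file headers, and the median spot and background intensities are raw pixel values. The authors' series table held equal processed signal intensities at all 810324 entries compared.

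Control spots (1639 of 45018 per array) and outlier spots were left out, spots of a probe were averaged, and log2 signals were scaled to the array's 75th percentile. Symbols came from RefSeq for 26718 of 41174 probes. A probe was kept if every array of 1 or more groups had it well above background (23554 probes), and the brightest per gene was used (17721 genes). Group means of the 6 groups were estimated from the 18 arrays with limma 3.58.1 and R 4.3.3 (12 residual degrees of freedom), with Benjamini-Hochberg adjustment over all genes and a threshold of 0.05, for each mutant against its control and for the 3 pairwise differences between these effects, and a mutant effect had a median standard error of 0.244. The fit was tested on simulated data.

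Named were the 10 genes, up to 4 called genes of each list with the largest change, the 3 genes most correlated with each of the 10, and the 3 targets. One gene that this rule names is not reported here. Called list genes below background in a group are counted but not given a fold. Genes between or beside the 10 on a chromosome were named after their values were seen. The members and lists were chosen with earlier results of these data known. Promoters are RefSeq's for GRCm38.p6. Alternatives were other scalings, filters, probe rules, blocks for replicate number, slide or scan date, and leaving out each array.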

Additional observations from a re-analysis of the deposited data

Results flagged for a closer look

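The effect of the Nrf1 CKO genotype on Cyp2j5 differed from that of the Nrf2 KO genotype by −1.10 and from that of the Keap1 KD genotype by −1.14 on the log2 scale, by the limma test of the difference itself (adjusted p = 0.0351 and 0.0291, n = 3 in each of the groups compared). All 3 Nrf1 CKO arrays lay below all 3 Nrf1 Control arrays, whereas both other lines overlapped with their controls. Both calls of a difference were lost with slide (limma adjusted p of 0.41 and 0.319) or scan date (0.179 and 0.092) as a block and without the filter on background (0.0926 and 0.0651). The first was also lost with the array median (0.064) and the mean of all probes (0.0784), and the second with quantile normalization (0.118), normexp (0.0505) and the arrays of the lines alone (0.0769).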

How the results depend on the processing

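Of 1260 values of the 10 genes under alternatives, 81 changed sign, and none of these was called under either setting. For Nrf1 CKO the 2 members called became 4 with only probes above background on all arrays (Cyp2d10 and Cyp2d26 added), 4 with the replicate block and 0 with slide as a block, where the count over all genes was 65, against 3348. Without filter it was 2117. The calls over all genes were 1416 higher and 1932 lower with the 75th percentile, 1539 and 1254 with quantile normalization and 1633 and 1400 with normexp. For Keap1 KD the 1 member called became 0 with scaling to the array median, without filter, with the filter on all arrays, with only the arrays of the line, and with slide or scan date as a block. Its count over all genes was 979, against 727 (355 higher and 372 lower, where it was 168 and 811), 615, 439, 52, 55 and 255 in that order, and 555 and 508 with quantile normalization and normexp. Between the Nrf1 and Nrf2 effects the 1 member called became 0 with the array median, without filter, with the mean of all probes, and with slide or scan date as a block. Between the Nrf1 and Keap1 effects 1 became 0 with quantile normalization, normexp, no filter, only the arrays of the lines, and slide or scan date as a block, 5 with the array median and 2 with the replicate block. In Nrf2 KO, and between the Nrf2 and Keap1 effects, 0 members were called under every alternative run, while 11 genes in Nrf2 KO became 22 with the array median, 6 with only the arrays of the line and 7 with scan date as a block. The counts over all genes for the 3 differences between effects were 988, 1226 and 548, and ranged down to 8, 11 and 27 with slide as a block. The causes of these changes were not tested. The slide block leaves 1 control array beside the Nrf1 CKO arrays on their slide.

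Without single arrays, 2 to 4 members were called in Nrf1 CKO, 0 to 2 in Keap1 KD, 0 to 2 for Nrf1 against Nrf2 effects and 0 to 4 for Nrf1 against Keap1 effects, with 939 to 4160, 350 to 1048, 294 to 2131 and 263 to 2312 genes over all. Cyp2d13 in Nrf1 CKO ranged from −1.66 to −1.05 and Cyp2j5 from −1.3 to −0.98, both called each time. Replicate numbers did not pair the samples: deviations of samples with the same number correlated at 0.127, 0.121 and −0.017 in the Nrf1 line, −0.078, −0.051 and 0.052 in the Nrf2 line and 0.101, −0.359 and 0.147 in the Keap1 line. With the replicate block Cyp2d10 and Cyp2d26 passed in Nrf1 CKO (limma adjusted p of 0.0214 and 0.0254). With 3 arrays a group, precision is limited to the standard errors given.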
